A study of Homo sapiens with 9 samples.

Results

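SOX2 and 9 genes that lie around it on the long arm of chromosome 3, bands 3q26 to 3q27, were followed through CAL27 cells that carry CRISPR edits. The 10 genes, out of 78894 identifiers in the deposited tables, were picked by name: SOX2, its overlapping long noncoding RNA SOX2-OT, and FXR1, DNAJC19, ATP11B, DCUN1D1, MCCC1, PIK3CA, ZMAT3 and TBL1XR1. They were picked with their values in these same libraries already known, to see whether SOX2 was lower alone or together with its neighbours. Their differences from Control are thus given as a description with no p-value. Where a fit over all genes called a member, that call only describes it too. All 10 were found, and 9 passed the minimum for testing, reaching 1 TPM in 2 or more of the distinct libraries. SOX2-OT did not. TPM is the share of a gene in its library's transcripts, scaled by gene length.

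CAL27 is an established tongue squamous carcinoma line. The 9 samples fall into 4 groups: 3 of Control and 2 each of A2ko, A8ko and C9ko, all grown in DMEM with 10% FBS and without treatment. The series title speaks of an enhancer in head and neck carcinoma, but the labels name the edited sequence in no knockout group and give no word on clones or pools. The files of the A2ko samples held identical values, as did those of the A8ko samples, so each pair was counted as 1 library. That left 7 distinct libraries, with 3 for Control, 1 for A2ko, 1 for A8ko and 2 for C9ko. The labels do not say whether samples of a group came from separate cultures, so p-values measure only the spread between these samples, which may be technical.

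SOX2 is a transcription factor with an HMG box, a DNA-binding fold that bends the minor groove at short A- and T-rich sites. It keeps stem cells pluripotent together with OCT4 (POU5F1), and in the lining of the mouth and oesophagus it marks basal cells and works beside the p53 relative TP63. The stretch of 3q that holds SOX2, PIK3CA and the other genes above is often gained as a block in squamous carcinomas. SOX2-OT runs through the SOX2 locus on the same strand, with the single-exon SOX2 gene lying inside one of its introns.

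The sequences just before 3 start sites are shown because SOX2 and FXR1 were the members that stood apart from Control in every knockout library, in opposite directions, and because the SOX2-OT start shown is the one nearest to SOX2. Each is the 250 bases before a RefSeq start, 5′ to 3′, from the RefSeq promoter table on GRCh38.p14. SOX2 is at chr3:181711675-181711924, SOX2-OT at chr3:181610084-181610333 and FXR1 at chr3:180912420-180912669, all on the plus strand. Capitals mark matches, on either strand, to 5 motifs: CCAAT, the GC box GGGCGG, the TATA box TATAAA, and the SOX core motifs ACAAAG and AACAAT.
SOX2: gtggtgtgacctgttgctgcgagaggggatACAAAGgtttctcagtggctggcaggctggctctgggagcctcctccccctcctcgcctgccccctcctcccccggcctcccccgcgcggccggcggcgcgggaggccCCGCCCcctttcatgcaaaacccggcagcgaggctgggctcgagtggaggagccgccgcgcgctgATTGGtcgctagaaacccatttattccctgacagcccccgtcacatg
SOX2-OT: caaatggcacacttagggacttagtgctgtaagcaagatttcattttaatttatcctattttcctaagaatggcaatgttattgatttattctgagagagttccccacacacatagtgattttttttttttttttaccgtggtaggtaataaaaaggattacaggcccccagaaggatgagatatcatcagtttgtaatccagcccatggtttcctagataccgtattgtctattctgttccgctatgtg
FXR1: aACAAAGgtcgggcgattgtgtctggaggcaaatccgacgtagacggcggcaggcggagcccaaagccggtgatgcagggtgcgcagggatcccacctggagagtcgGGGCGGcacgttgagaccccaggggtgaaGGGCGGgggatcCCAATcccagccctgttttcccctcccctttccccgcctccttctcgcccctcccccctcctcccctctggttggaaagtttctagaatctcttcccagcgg
The SOX2 window held ACAAAG at 220 bases before the start, the reverse complement of GGGCGG at 112 bases and the reverse complement of CCAAT at 47 bases. The FXR1 window held ACAAAG at 249 bases, GGGCGG at 143 and 114 bases and CCAAT at 102 bases. The SOX2-OT window held none of the 5 motifs. Its GC content was 36.8%, against 68.8% for SOX2, 64.4% for FXR1 and a median of 58% over all promoter windows. Among the 35116 windows of the same length, 32.0% held CCAAT, 42.6% GGGCGG, 10.7% TATAAA, 13.7% ACAAAG and 8.98% AACAAT. Promoter entries, 19 in all, were found for 9 of the 10 members, with ATP11B the exception. At least 1 of its entries held GGGCGG in 7 of these 9 members, CCAAT in 7, ACAAAG in 5, TATAAA in 2 and AACAAT in 0. Members with several entries had more chances of a match than a single window. A match is a run of letters only, and binding was not measured.

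All 7 libraries listed the same 78894 identifiers, and 15556 to 16716 genes reached 1 TPM. Depth is unknown because TPM keeps none. Squamous markers fitted the label: the 9 reported here (KRT5, KRT14, KRT17, KRT6A, TP63, EPCAM, CDH1, DSG3 and DSC3) all reached 1 TPM in a library. Their summed TPM was 15434 to 16506 in Control, 5987 in A2ko, 6594 in A8ko and 8895 to 9143 in C9ko. Of the markers of other cell types, 3 of 7 for fibroblasts, 2 of 6 for leukocytes, 1 of 4 for endothelium and 1 of 3 for neuroendocrine cells reached 1 TPM. COL3A1 and KDR were at 0 in every library. The fibroblast sum was 10.8 to 12.2 TPM in Control and 7.36 to 17.7 in the knockouts, and the neuroendocrine sum 0.880 to 1.47 and 0.952 to 1.94. The endothelial sum, nearly all CDH5, was 3.51 to 4.55 TPM in Control, 12.8 in A2ko, 8.63 in A8ko and 22.2 to 30.1 in C9ko. The leukocyte sum was 42.3 to 50.4 in Control and 59.8 to 82.8 in the knockouts. The share of mitochondrially encoded transcripts was 23.1% to 26.9% in Control, 25.2% in A2ko, 20.6% in A8ko and 17.9% to 20.2% in C9ko. The part of these shifts in the values below was not tested.

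SOX2 (ENSG00000181449, a single exon at 181711924 to 181714436 on the plus strand of chromosome 3, GRCh38) stood at 10.5, 10.1 and 9.87 TPM in the Control libraries. A2ko stood at 0.404 TPM, A8ko at 0.483 and C9ko at 0.319 and 0.150. Every knockout library lay far below every Control library, and the Control libraries lay close together at 10.2 ± 0.313 TPM (SD, n = 3). On log2(TPM + 1), the scale of all differences here, SOX2 differed from the Control mean by -2.99 in A2ko, -2.91 in A8ko and -3.18 in C9ko, whose libraries stood at -3.08 and -3.28. Adding 1 to each TPM shrinks the change of a gene that ends below 1 TPM. As a share of the Control mean TPM, A2ko kept 3.98% of SOX2, A8ko 4.75% and C9ko 2.31%, which is 25.1-fold, 21.0-fold and 43.3-fold lower. The values were not 0 in any library. In bulk RNA, fewer cells that express a gene and less RNA per cell cannot be told apart.

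In Control, SOX2 was a gene of middling abundance, at the 50.7th percentile of the 17100 tested genes. Its difference stood near the bottom of the whole table. Of those 17100 genes, 14 had a lower difference than SOX2 in A2ko, 28 in A8ko and 6 in C9ko. The 3 comparisons share their Control libraries. SOX2 was picked with these values known, so its rank is only a description. The scale also limits how far a gene of lower Control TPM can fall, so the rank does not order genes by share lost. SNRPN kept a smaller share of its Control TPM than SOX2: 1.32% in A2ko, 0% in A8ko and 1.02% in C9ko. Its differences, at -2.74, -2.86 and -2.77, were still smaller in size than those of SOX2.

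**Figure D1:**
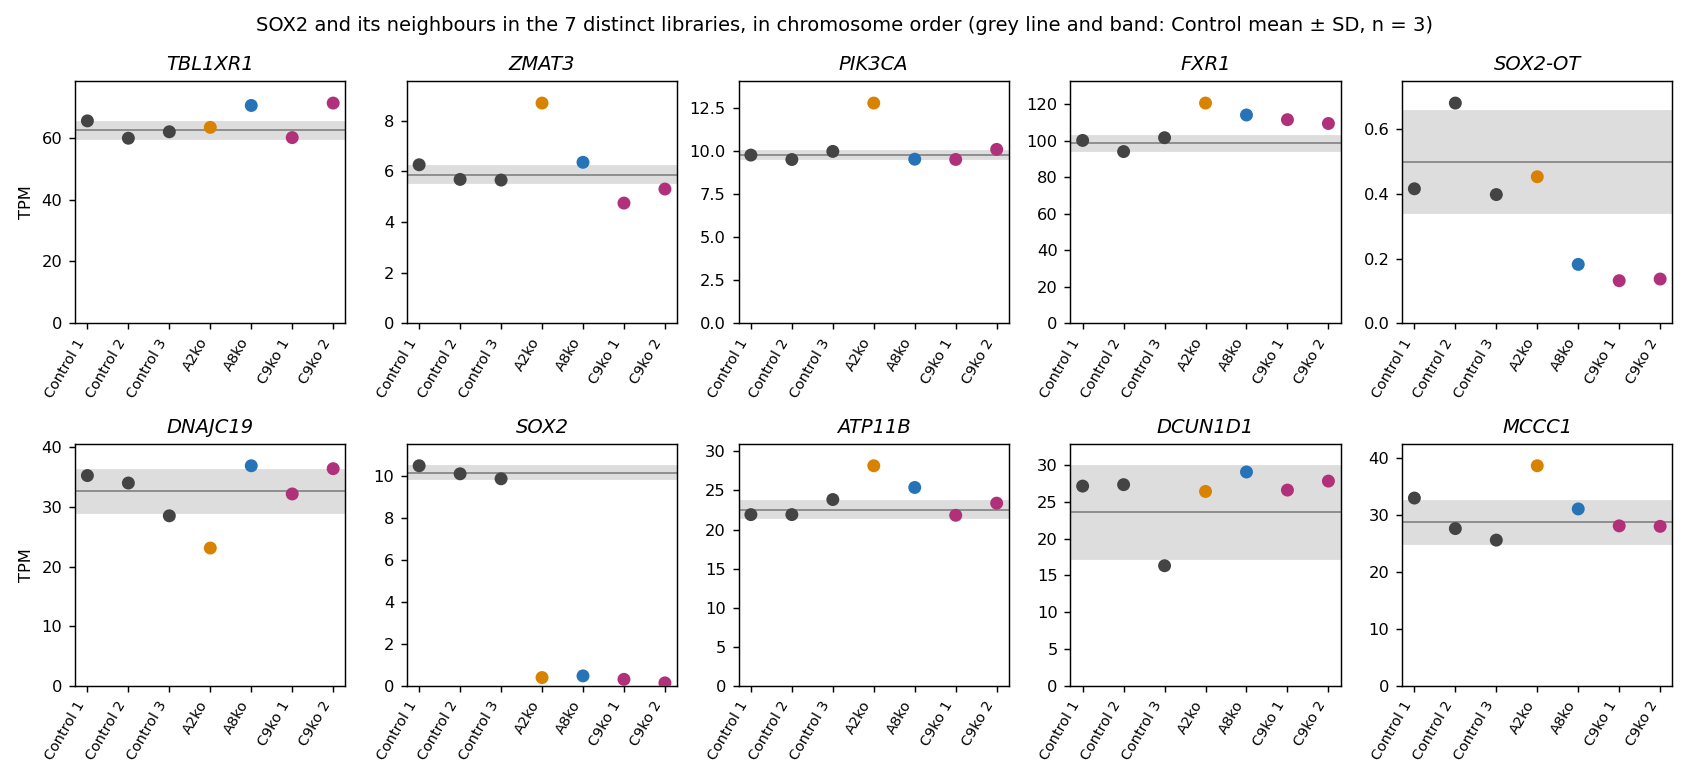
TPM (vertical axes, each from 0) of the 10 genes in the 7 distinct libraries, in chromosome order, with the grey line and band at the Control mean ± SD (n = 3). SOX2 goes from a Control mean of 10.2 TPM to under 1 TPM in all 4 knockout libraries, while the group differences of the 8 protein-coding neighbours lie between -0.47 and 0.50 on the log2 scale.

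Among the 9 tested members, SOX2 was the only one that lay beyond the Control range and also 1 log2 unit or more from the mean of Control. That held in each knockout. In A2ko 5.07% of all tested genes did so, 3.54% as higher and 1.53% as lower. In A8ko the share was 4.73%, with 2.05% higher and 2.68% lower, and in C9ko it was 5.11%, with 3.33% higher and 1.78% lower. In 0.427% of all tested genes every knockout library lay below every Control library and each knockout group was lower by that amount, and SOX2 was the only member among them. For C9ko, limma called genes at a Benjamini-Hochberg adjusted p below 0.05 in a fit of all 4 groups. That fit called SOX2 among the members, against 29.5% of all tested genes (22% higher and 7.42% lower). A fit of the 3 knockout group means against the 3 Control libraries called SOX2 too, against 1.03% of all tested genes (0.509% higher and 0.52% lower). Since the members were chosen from these contrasts, these counts only describe them. None of the 8 tested neighbours was past the 1 log2 unit in either direction in any knockout.

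SOX2-OT (ENSG00000242808) is a long noncoding RNA whose annotated model in GENCODE 29 spans 180989762 to 181836880, or 847 kb, with 90 transcripts. None of its 170 distinct exons overlaps SOX2, and the nearest upstream exon ends 558 bases before the SOX2 start. Its level was low throughout: 0.416, 0.680 and 0.398 TPM in Control. The A2ko library held 0.453, the A8ko library 0.182 and the C9ko libraries 0.132 and 0.137. A2ko lay inside the Control range, and A8ko and both C9ko libraries lay below it. As a share of the Control mean of 0.498 ± 0.158 TPM (SD, n = 3), A2ko stood at 90.9%, A8ko at 36.6% and C9ko at 27.0%. On the log2(TPM + 1) scale the differences were -0.04, -0.34 and -0.40. At these levels, and with depth unknown, the precision of single values cannot be given. In A2ko, SOX2 was at 3.98% of Control beside SOX2-OT at 90.9%.

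FXR1 encodes an RNA-binding protein of the fragile X family and starts 844 kb before SOX2. It stood at 100.3, 94.2 and 101.8 TPM in Control. Its knockout values were 120.8 (A2ko), 114.2 (A8ko), 111.7 and 109.6 (C9ko). All 4 knockout libraries lay above all 3 Control libraries, as was the case for 17% of all tested genes. The differences from the Control mean were 0.29, 0.21 and 0.16. The median of all tested genes was itself above 0, with A2ko at 0.12, A8ko at 0.09 and C9ko at 0.11. When TPM was rescaled by the median of ratios, which brings those medians to -0.03, 0.02 and 0.00, FXR1 differed by 0.12, 0.12 and 0.04.

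DNAJC19, a component of the machinery that imports proteins into mitochondria, starts 722 kb before SOX2. Its model overlaps that of SOX2-OT by 13 bases on the opposite strand, and the strand setting of the counting is not given in the sources used here. DNAJC19 stood at 35.3, 34.0 and 28.5 TPM in Control. For A2ko the value was 23.1, for A8ko 36.9 and for C9ko 32.2 and 36.4. Only A2ko lay below the Control range, at -0.47 from the mean, and A8ko and 1 C9ko library lay above it. It was the one tested neighbour that was lower than the Control range in A2ko.

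On the other side of SOX2, the nearest member is ATP11B, a phospholipid flippase that starts 1.08 Mb away. It stood at 21.9, 21.9 and 23.8 TPM in Control. Beside this, A2ko gave 28.2, A8ko 25.4 and C9ko 21.8 and 23.4. A2ko and A8ko lay above the Control range, 1 C9ko library lay just under it and the other inside it. The differences were 0.31, 0.16 and 0.00.

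DCUN1D1, which promotes the attachment of NEDD8 to cullins and is also known as SCCRO for squamous carcinoma, starts 1.27 Mb away. It stood at 27.1, 27.3 and 16.3 TPM in Control. Knockout libraries held 26.4 for A2ko, 29.02 for A8ko, and 26.6 and 27.8 for C9ko. Its Control mean of 23.6 ± 6.29 TPM (SD, n = 3) was the least even among the members relative to its size after that of SOX2-OT, because the third Control library was low. Its differences from the mean of all 3 were 0.19, 0.32 and 0.23. Without the third Control library they were -0.04, 0.09 and -0.0018, so they rest on that library.

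MCCC1, the biotin-bearing subunit of an enzyme of leucine breakdown, starts 1.40 Mb away. It stood at 33.0, 27.6 and 25.6 TPM in Control. A2ko stood at 38.6, A8ko at 31.1 and C9ko at 28.1 and 28.0. Only A2ko lay outside the Control range, at 0.42 above the mean, and the differences in A8ko and C9ko were 0.12 and -0.03.

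PIK3CA encodes the catalytic p110-alpha subunit of PI3-kinase, an oncogene often gained or mutated in squamous carcinomas, and starts 2.56 Mb before SOX2. In Control it was about as abundant as SOX2, at 9.78, 9.52 and 9.99 TPM. The A2ko library held 12.8 TPM, the A8ko library 9.54 and the C9ko libraries 9.52 and 10.1. A2ko lay 0.36 above the Control mean, 1 C9ko library just passed the highest Control value, and the differences in A8ko and C9ko were -0.03 and 0.01.

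ZMAT3, a zinc-finger RNA-binding protein and known p53 target, lies next to PIK3CA and starts 2.64 Mb before SOX2. It stood at 6.26, 5.68 and 5.66 TPM in Control. Its knockout values were 8.69 (A2ko), 6.36 (A8ko), 4.75 and 5.30 (C9ko). A2ko and A8ko lay above the Control range and both C9ko libraries below it, with differences of 0.50, 0.10 and -0.19. The A2ko difference was the largest positive one among the members.

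TBL1XR1, a subunit of the NCoR and SMRT corepressor complexes, is the farthest member, with its start 4.48 Mb before SOX2. It stood at 65.5, 59.9 and 62.0 TPM in Control. For A2ko the value was 63.4, for A8ko 70.5 and for C9ko 60.1 and 71.2. The C9ko libraries lay on different sides of the Control maximum, and the differences were 0.02, 0.17 and 0.07.

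In order of length-scaled level in Control, the members ran from FXR1 (98.7 ± 4.03 TPM, SD, n = 3) and TBL1XR1 (62.4 ± 2.84) through DNAJC19 (32.6 ± 3.59), MCCC1 (28.7 ± 3.81), DCUN1D1 (23.6 ± 6.29) and ATP11B (22.6 ± 1.11). SOX2 (10.2 ± 0.313), PIK3CA (9.76 ± 0.236), ZMAT3 (5.86 ± 0.341) and SOX2-OT (0.498 ± 0.158) followed. The ranges of the Control libraries overlapped between DNAJC19 and MCCC1, between MCCC1 and DCUN1D1, between DCUN1D1 and ATP11B, and between SOX2 and PIK3CA. Within each Control library, DNAJC19 lay above MCCC1 and MCCC1 above DCUN1D1. DCUN1D1 and ATP11B changed order in the third Control library, as did SOX2 and PIK3CA. The order was not tested. In every knockout library SOX2 moved below ZMAT3, and in A2ko it also lay below SOX2-OT.

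Against the Control range alone, with no minimum size, A2ko had 5 of the 8 tested neighbours above and 1 below, where 50.4% and 26.3% of all tested genes lay so. A8ko had 6 above and 0 below, where 46.9% and 26.4% did. With both libraries on 1 side, C9ko had FXR1 above and ZMAT3 below, where 41.1% and 16.4% did. DNAJC19 was the neighbour below the range in A2ko, and in A8ko PIK3CA and MCCC1 lay inside it.

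Over the 8 tested neighbours, differences ran from -0.47 to 0.50 in A2ko with a median of 0.30. They ran from -0.03 to 0.32 in A8ko with a median of 0.17, and from -0.19 to 0.23 in C9ko with a median of 0.04. All tested genes had medians of 0.12, 0.09 and 0.11. Of the 24 neighbour differences, 5 changed sign after the median-of-ratios scaling: TBL1XR1 in A2ko and C9ko, and PIK3CA, DNAJC19 and ATP11B in C9ko, all of them under 0.15 in size on either scale. The size of the largest neighbour difference was then 0.63, in DNAJC19, which stood at -0.63 in A2ko. SOX2 stood at -3.07, -2.97 and -3.24 on that scale.

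A ratio of TPM inside a library does not depend on how that library is scaled. Per 100 TPM of FXR1, the Control libraries held 10.5, 10.7 and 9.70 TPM of SOX2. A2ko held 0.335, A8ko 0.423, and C9ko 0.286 and 0.137. Per 100 TPM of PIK3CA, the Control libraries held 107.3, 106.2 and 98.8 TPM of SOX2, where the A2ko library held 3.16, the A8ko library 5.06 and the C9ko libraries 3.35 and 1.48. SOX2 and PIK3CA were thus at near-equal levels in Control, and SOX2 stood far under PIK3CA in every knockout library.

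To see whether the members chosen by name stand for their surroundings, all tested genes near SOX2 that are not members were taken by position. Within 5 Mb (megabases) of the SOX2 start there were 60 such genes. Limma called 15 of them in C9ko, or 25%, against 29.5% of all tested genes; 10 were higher and 5 lower. After median-of-ratios scaling the same window gave 18 calls, of which 7 were higher and 11 lower, against 28.1% of all tested genes. That scaling lost 3 higher calls and gained 6 lower ones, and none of the 21 genes called on either scale changed sign. Leaving out 1 replicate at a time gave 11 to 13 calls. Median differences of the 60 genes were 0.22 in A2ko, 0.14 in A8ko and 0.09 in C9ko.

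Past 1 log2 unit and outside the Control range, the 60 genes held 2 that were higher in A2ko and none lower. They held 1 higher and 1 lower in A8ko, and likewise in C9ko. Of all tested genes, 3.54% were higher and 1.53% lower by this rule in A2ko, 2.05% and 2.68% in A8ko, and 3.33% and 1.78% in C9ko. The lower gene was EPHB3, an ephrin receptor tyrosine kinase, and the higher one ETV5, a transcription factor of the PEA3 group. Comparing the knockout group means with Control, limma called 0 of the 60, with 11 at an unadjusted p below 0.05, where 16% of all tested genes were. The contrast of the knockout groups within the fit of all 4 groups called 14, against 25.5% of all tested genes. That contrast takes its spread only from Control and C9ko, so it leaves out the spread between knockout groups, here and for the lists below. With the group means, leaving out the single A2ko library moved the count from 0 to 7. Of these, 3 were higher and 4 lower, against 11.7% of all tested genes called. In 1 of the 60 genes every knockout library lay below every Control library, and in 10 every one lay above, where 4.61% and 17% of all tested genes did so.

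**Figure D2:**
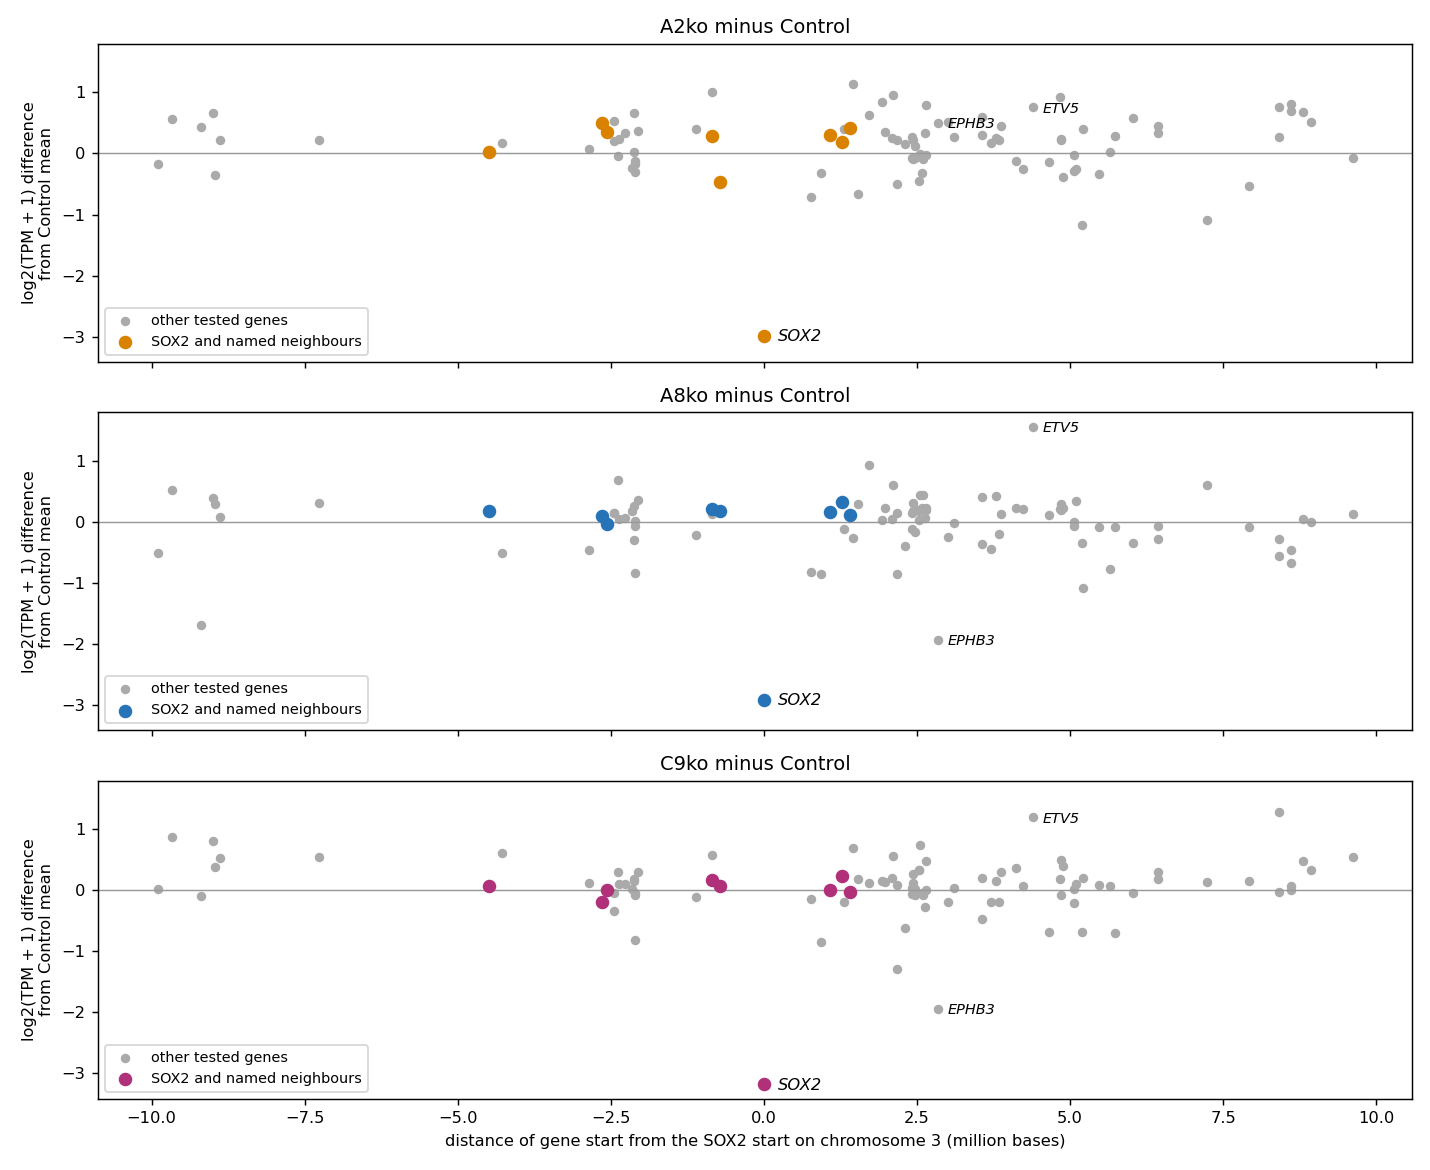
Difference from the Control mean in log2(TPM + 1) (vertical axis) against the distance of each gene start from the SOX2 start in Mb (horizontal axis), 1 panel per knockout, with members coloured and other tested genes grey. SOX2 sits alone near -3 in each panel, members on both sides sit between -0.47 and 0.50, and EPHB3 is low in A8ko and C9ko but not in A2ko.

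Close to SOX2 the ground is sparse. Within 2 Mb the annotation places 72 identifiers, of which 33 were at 0 in every library, 23 were above 0 but not tested and 16 were tested, members included. The highest value among those not tested was 4.87 TPM, for CCDC39 in the third Control library. Also among those not tested, every knockout library lay below every Control library for LINC01206 and TTC14-DT. LINC01206, which starts 240 kb from SOX2, held 0.126, 0.0612 and 0.0889 TPM in Control. A2ko held 0.00963, A8ko 0, and C9ko 0 and 0.0107. TTC14-DT held 0.172, 0.364 and 1.20 TPM in Control, with A2ko at 0.0673, A8ko at 0.0697, and C9ko at 0 and 0.0837. Values this near the floor have no known precision. Of the 10 tested genes in that span that are not members, 2 were called in C9ko, LINC02031 and LAMP3, against 29.5% of all tested genes.

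LINC02031, a long noncoding RNA at 182644214 to 182655880, starts 0.93 Mb from SOX2. It stood at 1.79, 1.39 and 1.58 TPM in Control. Beside this, A2ko gave 1.08, A8ko 0.423 and C9ko 0.481 and 0.377. It was the only gene of the 60 with all 4 knockout libraries below all 3 Control libraries. In C9ko it fell by 0.85 ± 0.16 (log2, SE; limma, Benjamini-Hochberg adjusted p = 0.00759), and the adjusted p was 0.000243 to 0.0437 over the 15 alternative settings that tested it. With the knockout group means the difference was -0.68 at a limma adjusted p of 0.198.

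LAMP3, a lysosome-associated membrane glycoprotein named here because it was the other call, stood at 12.7, 11.1 and 11.3 TPM in Control. Knockout libraries held 26.9 for A2ko, 9.54 for A8ko, and 19.0 and 19.8 for C9ko. It rose by 0.69 ± 0.08 in C9ko (log2, SE; limma adjusted p = 0.00132). A8ko lay below the Control range while the other knockout libraries lay above it.

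The other nearest tested genes were not called in C9ko with the settings used throughout. On the PIK3CA side these were USP13, a ubiquitin-specific protease (0.29, limma adjusted p = 0.0521), TTC14 (-0.12, adjusted p = 0.206) and ENSG00000145075, which has no symbol in the table used (0.57, adjusted p = 0.301). ENSG00000145075 stood at 1.46, 1.22 and 0 TPM in Control, so its difference rests largely on the third Control library. With the replicate number as a block that difference was 0.16. In the third Control library CCDC39, whose model overlaps it on the same strand, held 4.87 TPM, against 0 to 0.0397 in every other library. How reads were split between these models was not tested. USP13 was above the Control range in all 4 knockout libraries, and was called with all 9 files as libraries and with a mean of at least 5 TPM, at limma adjusted p of 0.00608 to 0.255 over 16 alternatives. TTC14 was called, as lower, once TPM was rescaled by the median of ratios (limma adjusted p = 0.0203, and 0.0203 to 0.494 over 16 alternatives). On the other side, the long noncoding RNA LINC01994 stood at 1.10, 1.09 and 0.839 TPM in Control. A2ko stood at 0.220, A8ko at 0.133 and C9ko at 0.985 and 0.660. Its difference in C9ko was -0.15 (limma adjusted p = 0.570). MCCC1-AS1, which overlaps MCCC1 on the other strand and cannot be told apart from it if strand was not used, differed by -0.20 (adjusted p = 0.518).

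Along the whole of chromosome 3, in bins of 10 Mb, the bin that holds SOX2 had 65 tested genes and median differences of 0.22 in A2ko, 0.12 in A8ko and 0.08 in C9ko. SOX2 itself was thus far from the median of its bin in all 3 knockouts. The bins with high medians lay elsewhere: in C9ko, the 6 bins of the first 60 Mb had medians of 0.76 to 0.92, against 0.10 to 0.15 in A2ko and 0.16 to 0.25 in A8ko. In those 6 bins limma called 305 of 356 tested genes higher and 3 lower in C9ko, against 22% and 7.42% of all tested genes. The bin from 60 to 70 Mb lay between, with a C9ko median of 0.34 and 41.7% of its 24 tested genes called. From 70 Mb on, where all the members lie, C9ko bin medians ran from -0.06 to 0.20. There 27.8% of the tested genes were called, against 29.5% of all tested genes.

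**Figure D3:**
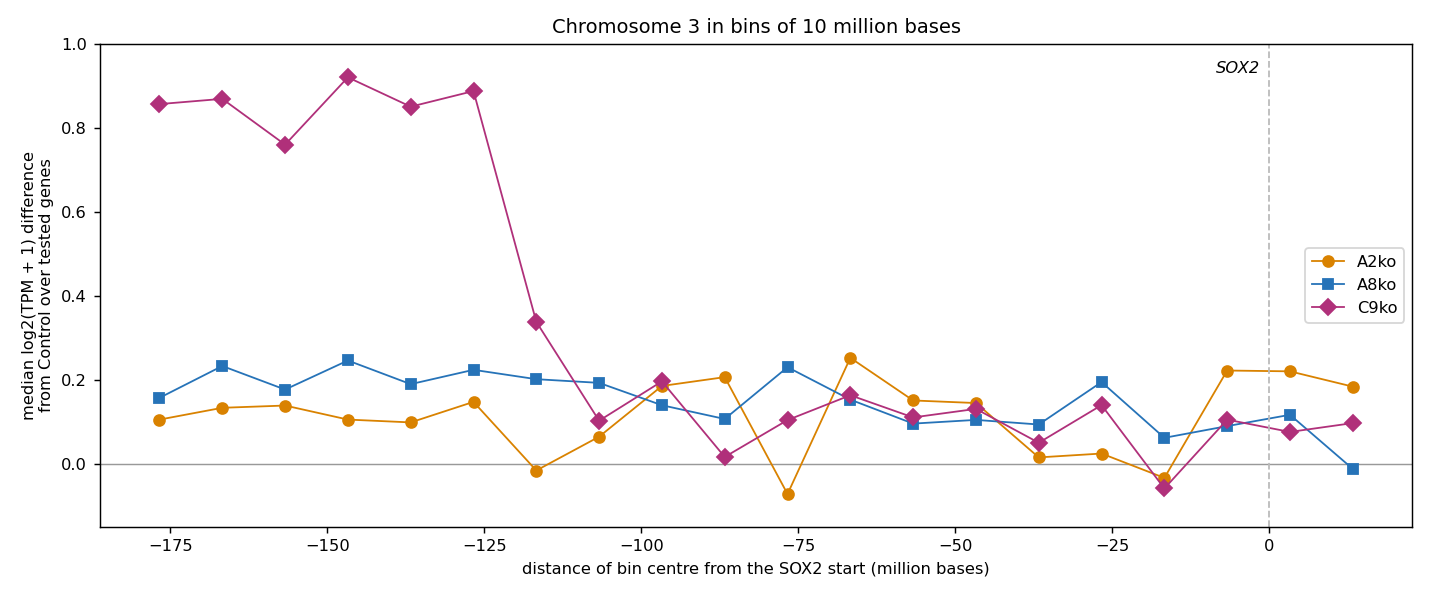
Median difference from Control in log2(TPM + 1) over tested genes (vertical axis) in bins of 10 Mb, placed by the distance of the bin centre from SOX2 in Mb (horizontal axis), 1 line per knockout. The bin with SOX2 sits at 0.22, 0.12 and 0.08, and the C9ko line stands at 0.76 to 0.92 over the first 6 bins.

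SOX2 belongs to a family of related HMG-box factors, of which 19 were listed and 10 tested. Leaving SOX2 aside, limma called 4 of the other 9 in C9ko, of which 2 rose and 2 fell, against 29.5% of all tested genes. With the knockout group means it called 0 of the 9, with 2 at an unadjusted p below 0.05 (16% of all tested genes). The contrast within the fit of all 4 groups called 4 (25.5% of all tested genes), and without A2ko the group means gave 1 call (11.7%). Of the 19, 5 were at 0 in every library, among them SOX3, which belongs to the same SOXB1 group as SOX2.

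SOX4, a SOXC factor active in many carcinomas, stood at 3.60, 3.81 and 3.87 TPM in Control. The A2ko library held 5.89, the A8ko library 7.83 and the C9ko libraries 11.1 and 12.0. All 4 knockout libraries lay above Control, and in C9ko it rose by 1.40 ± 0.09 (log2, SE; limma adjusted p = 9.3e-05, and 9.51e-07 to 0.00396 over 16 alternatives). SOX9, a SOXE factor of cartilage and of many epithelial progenitors, stood at 10.6, 9.96 and 11.1 TPM in Control. Its knockout values were 13.2 (A2ko), 9.36 (A8ko), 16.8 and 16.2 (C9ko). It rose by 0.60 in C9ko (limma adjusted p = 0.00183), with A8ko below the Control range.

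SOX15, a SOX factor of keratinocytes and the most abundant family member here, stood at 182.6, 170.0 and 178.3 TPM in Control. For A2ko the value was 95.4, for A8ko 183.1 and for C9ko 134.3 and 137.0. It fell by 0.38 in C9ko (limma adjusted p = 0.00427), a call that was lost with the replicate number as a block (adjusted p = 0.0630, the highest of 16 alternatives, the lowest being 0.000126), and A8ko lay just above the Control range. SOX1, the other SOXB1 factor measured, stood at 1.64, 1.59 and 1.70 TPM in Control. Beside this, A2ko gave 1.02, A8ko 1.60 and C9ko 0.935 and 0.942. Its fall of 0.45 in C9ko (limma adjusted p = 0.0443) was lost with the block and whenever any 1 library of Control or C9ko was left out, with limma adjusted p of 0.00138 to 0.166 over 15 alternatives.

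The other 5 tested family members were not called in C9ko. SOX7 was at 30.6 to 32.0 TPM in Control and 29.1 to 34.5 in the knockouts, and SOX13 at 18.02 to 20.2 and 15.1 to 20.0. SOX12 was at 7.64 to 7.87 TPM in Control and 4.85 to 9.30 in the knockouts. SOX18 was at 5.31 to 5.77 in Control and 1.44 to 4.87 in the knockouts, with all 4 libraries below Control. SOX6 was at 0.651 to 1.12 TPM in Control and 0.358 to 1.23 in the knockouts. In Control, per length, SOX2 stood in the middle of the family, close to SOX9, below SOX15, SOX7 and SOX13 and above SOX12, SOX18, SOX4, SOX1 and SOX6.

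**Figure D4:**
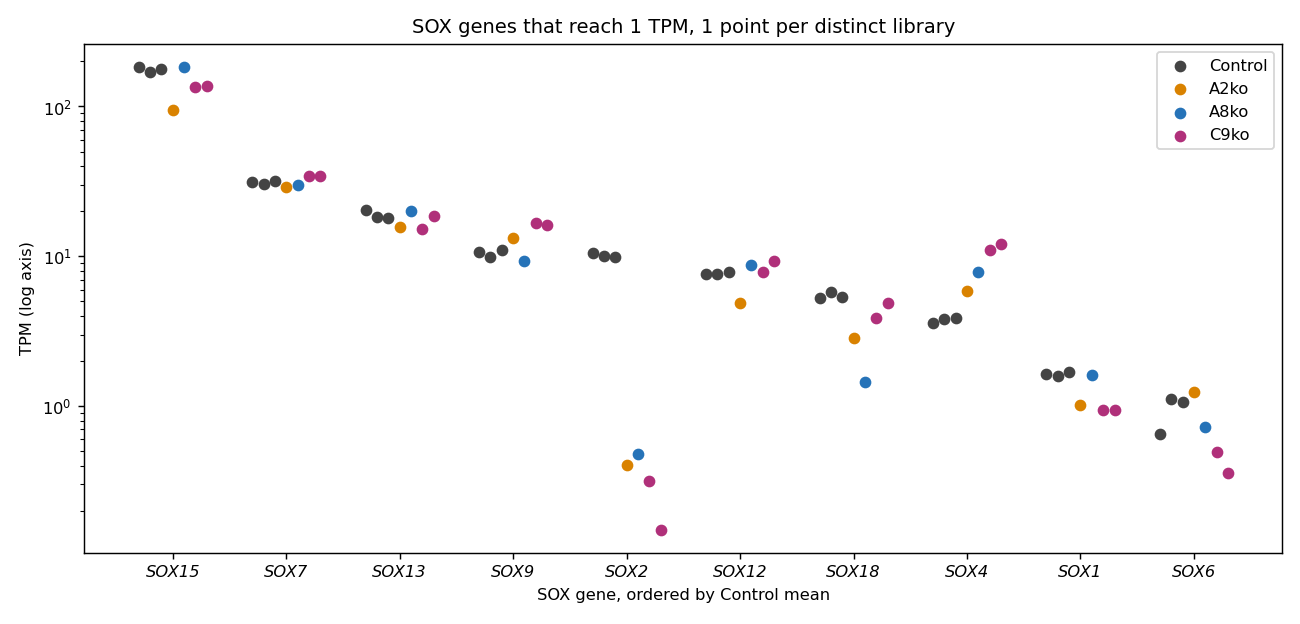
TPM on a log axis (vertical) of the 10 SOX genes that reach 1 TPM in a library, ordered by Control mean (horizontal), with 1 point per distinct library. SOX2 goes from a Control mean of 10.2 TPM to between 0.150 and 0.483 TPM, and SOX4 climbs from 3.60 to 3.87 TPM to between 5.89 and 12.0 TPM.

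The partners that SOX2 is known for in pluripotent cells mostly stayed below the minimum for testing. Of 16 listed genes 4 were tested: POU5F1, KLF4, MYC and TERT. KLF4, a zinc-finger factor that also drives squamous differentiation, stood at 25.9, 25.7 and 26.9 TPM in Control. Knockout libraries held 22.7 for A2ko, 28.4 for A8ko, and 38.9 and 43.8 for C9ko. It was the one call of 4, where 29.5% of all tested genes were called, with a rise of 0.64 in C9ko (limma adjusted p = 0.00112). POU5F1 stood at 1.91 to 3.15 TPM in Control and 2.31 to 3.45 in the knockouts. NANOG, SALL4, LIN28A and LIN28B were under 1 TPM in all libraries.

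Of 32 genes linked to SOX2 in squamous cells and their progenitors, 29 were tested. Limma called 20 in C9ko, or 69.0%, of which 9 rose and 11 fell, against 29.5% of all tested genes. The list was written with earlier results of these data known, so the share is no independent evidence. After median-of-ratios scaling, 7 rose and 13 fell. With the knockout group means 1 was called, NRP1, with 13 at an unadjusted p below 0.05 (16% of all tested genes). The contrast within the fit of all 4 groups called 20, 8 higher and 12 lower (25.5% of all tested genes), and without A2ko the group means gave 15 calls, 6 higher and 9 lower (11.7% of all tested genes). NRP1 was called in 8 of 16 alternatives, at limma adjusted p of 0.000809 to 0.271. Its call was lost without any single Control library, without A8ko, without C9ko and without C9ko replicate 1. It was also lost after median-of-ratios scaling and with no minimum. Median differences were -0.24 in A2ko, -0.24 in A8ko and 0.02 in C9ko.

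Of these genes, 4 fell by at least 1 log2 unit in C9ko. KRT15, a keratin of basal cells, went from 1803 to 1925 TPM in Control to 411.7 and 419.4 in C9ko, a fall of 2.17 (limma adjusted p = 8.92e-06). SPRR1B, a protein of the cornified envelope, went from 214.6 to 228.2 TPM to 53.9 and 51.7, a fall of 2.05 (limma adjusted p = 8.3e-06). KRT14, the partner of KRT5 in basal cells, went from 3549 to 4286 TPM to 1283 and 1247, a fall of 1.61 (limma adjusted p = 8.16e-05). ALDH1A1, an aldehyde dehydrogenase used as a marker of stem-like tumour cells, went from 1.04 to 1.59 TPM to 0.0483 and 0.0648, a fall of 1.07 (limma adjusted p = 0.0056), while A2ko lay above Control. The summed squamous markers given above, KRT5 and KRT14 among them, were lower in every knockout too. Such a sum weighs the most abundant markers most, and not every marker was lower: TP63 lay above every Control library in C9ko. What these levels have to do with SOX2 was not tested.

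ETV4, a PEA3 factor related to ETV5, rose by 1.20 in C9ko (limma adjusted p = 0.000224), while A2ko, at 9.95 TPM, lay below the 12.2 to 14.7 of Control. NRP1, a coreceptor for VEGF and semaphorins, was at 4.83 to 5.57 TPM in Control and 9.14 to 14.0 in the knockouts. It rose by 1.14 in C9ko (limma adjusted p = 0.000438) and by 0.94 over the knockout group means (limma adjusted p = 0.0451). TP63, which lies farther along 3q, was not called in C9ko, with 271.3 to 296.2 TPM in Control, 265.0 in A8ko, 194.0 in A2ko, and 307.6 and 312.8 in C9ko.

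Of 46 other genes of the 3q amplicon, written down as a list that shares TP63 with the one above and many genes with the window of 5 Mb, 43 were tested. Limma called 15 in C9ko, or 34.9%, of which 11 rose and 4 fell, against 29.5% of all tested genes. After median-of-ratios scaling 9 rose and 9 fell. With the knockout group means it called 0, with 10 at an unadjusted p below 0.05 (16% of all tested genes). The contrast within the fit of all 4 groups called 16 (25.5% of all tested genes), and without A2ko the group means gave 9 calls (11.7%). In 13 of the 43, or 30.2%, all 4 knockout libraries lay above all Control libraries, and in 0 did all lie below, where 17% and 4.61% of all tested genes did so. Median differences were 0.22 in A2ko, 0.13 in A8ko and 0.10 in C9ko, close to those of all tested genes in A8ko and C9ko.

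EPHB3, 2.85 Mb from SOX2, stood at 13.6, 13.7 and 15.9 TPM in Control. A2ko stood at 20.8, A8ko at 3.04 and C9ko at 2.43 and 3.69. It fell by 1.94 ± 0.15 in C9ko (log2, SE; limma adjusted p = 0.000188). ETV5, 4.40 Mb from SOX2, stood at 2.59, 2.55 and 2.82 TPM in Control. The A2ko library held 5.16, the A8ko library 9.74 and the C9ko libraries 6.31 and 8.55. It rose by 1.19 ± 0.13 in C9ko (limma adjusted p = 0.000888), and by 1.17 over the knockout group means, where the limma adjusted p was 0.0657. EPHB3 was thus the one tested gene within 5 Mb besides SOX2 that was lower by over 1 log2 unit in A8ko and in C9ko, and in A2ko it lay above Control.

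Finally, genes were ordered by how alike their pattern over the 7 libraries was to that of SOX2, by Pearson's r of log2(TPM + 1) among 11276 genes with at least 5 TPM in the mean of Control or of the knockouts. With 3 libraries on one side and 4 on the other, r rests largely on that one step, so it is a description. The most alike were SNRPN on chromosome 15 (r = 0.997), ACKR3 on chromosome 2 (0.996), the calcium-binding protein S100A14 on chromosome 1 (0.995), the disulfide isomerase AGR2 on chromosome 7 (0.994) and PEDS1-UBE2V1 on chromosome 20 (0.991). None is on chromosome 3. SNRPN, which encodes a spliceosome protein from an imprinted locus, stood at 6.17, 6.15 and 6.40 TPM in Control. Its knockout values were 0.0822 (A2ko), 0 (A8ko), 0.0985 and 0.0283 (C9ko). ACKR3, a scavenger receptor for CXCL12, stood at 90.6, 80.5 and 87.5 TPM in Control. For A2ko the value was 31.2, for A8ko 29.1 and for C9ko 25.8 and 24.8. PEDS1-UBE2V1 is a readthrough of neighbouring genes, and its reads could be split between them.

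The most opposite were the mitochondrial quality-control kinase PINK1 (r = -0.995), the actin-capping TMOD1 (-0.994), the endothelin-converting enzyme ECE1 (-0.992), the lysosomal cofactor GM2A (-0.992) and RTL10 (-0.991). Of the neighbours, FXR1 had an r of -0.88 with SOX2, and the other 7 tested neighbours had r between -0.47 and 0.07. DNAJC19, at 0.07, was the only one above 0.

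**Figure D5:**
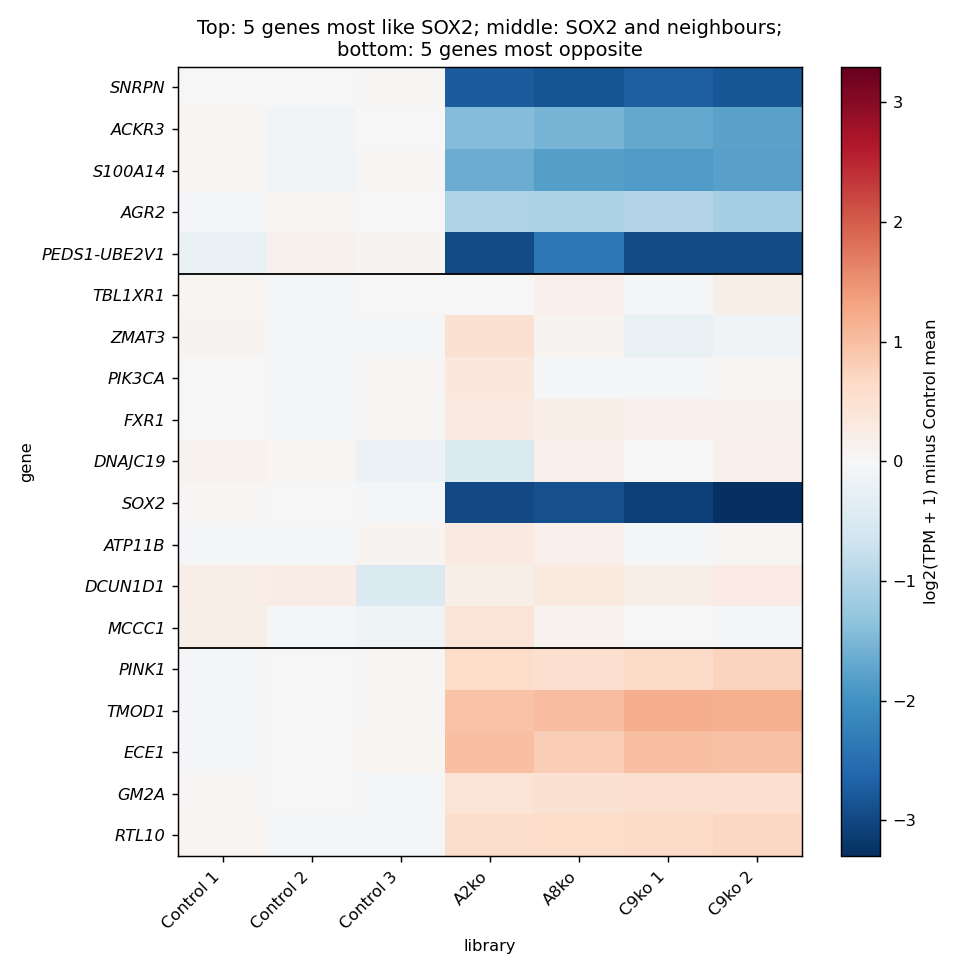
Colour map of log2(TPM + 1) minus the Control mean, with libraries as columns and genes as rows: the 5 genes most like SOX2 on top, the 9 tested members in the middle and the 5 most opposite genes at the bottom. SOX2 is the only member whose knockout columns are strongly blue, at -2.91 to -3.28, while its neighbours are pale, between -0.47 and 0.50 as group means.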

How the data were processed

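The authors deposited 1 file per sample with a TPM value per Ensembl gene identifier. Per the labels' protocols, polyA RNA was taken with TRIzol from CAL27 cells, and libraries were made by the dUTP method, which marks strand, from 2 ug of total RNA. The build is hg38, per the submitters' processing notes. The aligner, quantification tool, annotation release and strand setting are not given in the sources used here.

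From these values, log2(TPM + 1) was computed for the 7 distinct libraries. Symbols were matched for 42165 identifiers and GENCODE 29 positions for 57342. The 17100 genes that reached 1 TPM in 2 or more libraries were fitted with limma 3.58.1 in R 4.3.3 (lmFit, eBayes with trend, Benjamini-Hochberg adjustment over all tested genes, calls at adjusted p under 0.05). For C9ko all 4 groups shared the fit. For all knockouts together, 3 group means were held against 3 Control libraries. With 1 library each, A2ko and A8ko were given no p-value: a gene counted when it lay beyond the Control range and also 1 log2 unit or more from the mean of Control. The fits were tested on simulated data.

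The members and lists were chosen with earlier results of these data known. Named genes are all members and called list genes with a difference of at least 1 log2 unit (up to 4 per direction and list). Also named are SOX genes that reach 1 TPM and the 3 nearest tested genes on each side of SOX2. The 5 genes at each end of the likeness order complete the rule. LAMP3, KLF4, POU5F1, MYC, TERT, NANOG, SALL4, LIN28A, LIN28B, SOX3, TP63, CCDC39, LINC01206, TTC14-DT and the cell markers were named outside this rule after their values were seen. Alternatives changed the pseudocount, the filter, the scaling, the handling of identical files, the samples fitted, the replicate block and the window. Of the marker lists, 2 genes are not reported here and are left out of the sums.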

Additional observations from a re-analysis of the deposited data

Results flagged for a closer look

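In 2 named genes the knockouts lay on opposite sides of the Control libraries, each at least 0.5 log2 units from the Control mean, a minimum chosen after the data were seen. The difference between the knockouts was not tested. In A2ko the EPHB3 difference was 0.501, and 0.342 after median-of-ratios scaling, which is under that minimum. The ALDH1A1 difference in A2ko was 0.643, and 0.535 after that scaling. For EPHB3, A2ko stood at 20.8 TPM, above the Control values of 13.6 to 15.9, while A8ko stood at 3.04 and C9ko at 2.43 and 3.69, so that A2ko and the lowest knockout group were 2.44 log2 units apart. For ALDH1A1, A2ko stood at 2.46 TPM, above the Control values of 1.04 to 1.59, while A8ko stood at 0 and C9ko at 0.0483 and 0.0648, which puts A2ko and A8ko 1.79 log2 units apart. SOX2 did not share this split: it lay below Control in all 4 knockout libraries.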

How the results depend on the processing

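SOX2 stayed lower than Control under every alternative that tested it: -4.35 to -2.97 in A2ko, -4.14 to -2.89 in A8ko and -4.99 to -3.08 in C9ko, with the lowest values at a pseudocount of 0.1. A minimum mean of 5 TPM removed SOX2 from the table, so the count of members lower in every knockout went from 1 to 0. Over all genes, C9ko calls went from 5038 to 8166 with all 9 files as separate libraries, and to 3301 to 4174 when 1 replicate was left out. Calls for all knockouts went from 176 to 23 with no minimum, 1993 without A2ko, 67 without C9ko, 4361 within the fit of all 4 groups and 5 to 165 when 1 replicate was left out. At a pseudocount of 0.1 and a mean of at least 5 TPM, A2ko counts went from 867 to 1813 and 380, and A8ko counts from 809 to 1689 and 412. With 9 files, calls went from 15 to 23 near SOX2, 5 to 8 in the SOX family and 15 to 24 in the 3q list. The window of 2 Mb gave 2 calls. A mean of at least 5 TPM left 3 SOX calls, and median-of-ratios scaling gave 2 pluripotency calls in place of 1. Higher genes were 74.8% of C9ko calls, 56.3% after median-of-ratios scaling and 60.7% after scaling to the nuclear total. The cause of these moves was not tested. With A2ko and A8ko at 1 library each, the fit of all 4 groups takes its spread from Control and C9ko alone. Its calls for all knockouts thus leave out the spread between knockout groups. With all 9 files, each identical pair enters the fit as 2 libraries with no spread between them, so those counts treat copies as replicates.

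Replicate numbers 1 and 2 are shared by Control and C9ko. Over all tested genes, the correlations of same-numbered deviations were -0.05 and -0.01. The deviations of the 2 C9ko libraries mirror each other, so these values are not separate checks. They cannot exclude a pairing that touches part of the genes. With the replicate number as a block, C9ko calls went to 3248, near SOX2 to 8, in the SOX family to 3 and in the 3q list to 9.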
